A study of Rattus norvegicus with 6 samples.

Results

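Amino acids enter and leave retinal cells through transporter proteins of the plasma membrane, and 10 genes for such transporters were examined by RNA sequencing of the rat neuroretina. The 10 genes are Slc7a1, Slc7a3, Slc7a5, Slc7a6, Slc3a2, Slc38a1, Slc38a2, Slc38a3, Slc1a4 and Slc1a5, out of 28358 genes in the tables. They were chosen by name with earlier expression values and fold changes of the same comparison in view. What follows on that comparison is therefore a description of these genes and carries no test of them. All 10 were found in the tables and all 10 passed the filter on low counts, which kept 13242 genes.

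The tissue was neuroretina from Goto-Kakizaki (GK) rats, all of them male and aged 14 months. GK rats are lean and become diabetic spontaneously. In 3 samples the eye had received a single intravitreal dose of 5 µL of PLGA microspheres, a biodegradable carrier, loaded with 6.2 µg of spironolactone, which blocks the mineralocorticoid receptor, and the retinas were taken 2 months later. The 3 samples they were compared with came from GK rats injected with microspheres that held no drug. For these samples the injected volume and the time from injection to collection are not given in the labels used here. Both groups are thus diabetic and injected, and a group without diabetes or without injection was not analysed here. The labels do not say whether the 3 samples of a group came from 3 animals, so the spread between them may be in part technical. The titles number the spironolactone samples 8, 10 and 11 and the non-loaded samples 2, 3 and 4. What these numbers mark is not stated, and they cannot be told apart from the treatment. Libraries held 10575220 to 12589466 expected counts with spironolactone and 9996198 to 11966769 with non-loaded microspheres. Each pair of libraries differed by more than counting error, with a chi-square per gene of 4.0 to 15.99. It was 4.0 to 7.12 for pairs within a group and 4.72 to 15.99 for pairs across the groups, with overlap. The pair across the groups with the lowest value was spironolactone replicate 1 and non-loaded replicate 3.

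The transporters fall into 4 families. The cationic amino acid transporters Slc7a1 and Slc7a3 carry arginine, lysine and ornithine. Slc3a2 encodes a heavy chain, also called CD98 or 4F2hc, that takes light chains such as Slc7a5 (LAT1) and Slc7a6 to the cell surface, where the pair exchanges amino acids across the membrane. Slc38a1 and Slc38a2 take up small neutral amino acids together with sodium, while Slc38a3 moves glutamine and histidine in either direction and is known from glia. Slc1a4 and Slc1a5 exchange alanine, serine, cysteine and, for Slc1a5, glutamine. In many mammalian cells a shortage of amino acids activates the transcription factor ATF4, which binds DNA elements of the C/EBP-ATF type and raises the transcription of several of these transporter genes.

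Within each family some genes were higher after spironolactone and others were not. Slc7a1, Slc7a5, Slc3a2, Slc38a2 and Slc1a4 were higher in all 3 spironolactone libraries than in all 3 non-loaded libraries, by 1.52-fold (Slc3a2) to 3.71-fold (Slc7a1). Slc7a6, Slc38a1, Slc38a3 and Slc1a5 overlapped between the groups, with log2 fold changes of -0.05 to 0.01. Slc7a3 was lower in all 3 spironolactone libraries. With edgeR's quasi-likelihood test at an adjusted p of 0.05 over all tested genes, 5 of the 10 were called higher, where 1.87% of all tested genes were, and 0 were called lower, where 0.763% of all tested genes were. Groups did not overlap upwards for 5 of the 10, against 11.4% of all tested genes, and downwards for 1, against 9.48%. Since the genes were selected on this comparison, nothing is read from these shares. In a bulk retina, fewer cells of a type and less RNA per cell cannot be told apart.

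**Figure D1:**
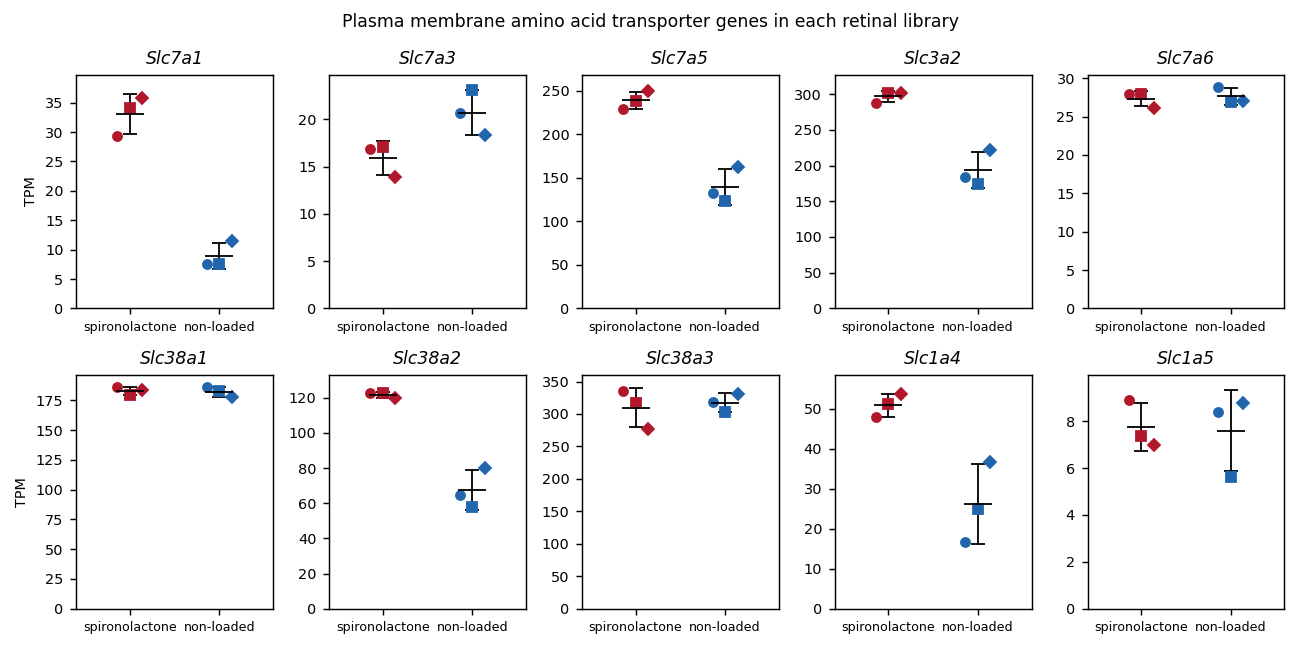
Level of each of the 10 transporter genes in TPM (transcript abundance corrected for length, vertical axes from 0) in the 3 spironolactone (red) and 3 non-loaded (blue) libraries. Circles, squares and diamonds are replicates 1, 2 and 3, and black bars are the mean ± SD of 3 libraries. Slc7a1, Slc7a5, Slc3a2, Slc38a2 and Slc1a4 lie higher with spironolactone without overlap, Slc7a3 lies lower, and the other 4 overlap.

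The letters of the C/EBP-ATF element were looked for at the promoters of these genes, because part of the genes were higher together and this element is known from amino acid response genes. The RefSeq promoter table (build GRCr8) holds windows of 300 bases, 250 before and 50 from a transcription start, for 7 of the 10 genes, with 2 windows for Slc3a2. The letters TGATGNAA were found on either strand in 3 of the 8 windows, and in 3.98% of all 33469 windows of the table. The 8 windows had a GC content of 48.3% to 72.3%, against a median of 51.7% over all windows. The 3 matches are shown with 15 bases on each side, 5′ to 3′ on the strand of the gene, with the match in capitals. They lie at chr12:11664443-11664480 on the plus strand (Slc7a1), chr14:98761775-98761812 on the minus strand (Slc1a4) and chr7:129681521-129681558 on the minus strand (Slc38a1).
Slc7a1: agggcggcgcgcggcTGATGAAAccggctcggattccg
Slc1a4: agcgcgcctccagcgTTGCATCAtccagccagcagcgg
Slc38a1: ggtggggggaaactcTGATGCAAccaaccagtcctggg

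The match at Slc7a1 begins at position -30 from the start of the gene, that at Slc38a1 at -142 and that at Slc1a4, on the opposite strand, at -235. For Slc38a1, Slc1a4, Slc7a6 and the other window of Slc3a2, the start used by the table lies inside the span of a longer transcript. Slc7a1 and Slc1a4 were higher with spironolactone, whereas Slc38a1, whose window holds the same letters, had overlapping groups. The windows of Slc7a5, Slc3a2 and Slc38a2, which were also higher, and of Slc7a6 held no match, which says only that these letters are not within these 300 bases. The letters TGACGTCA of the cAMP response element were found in 0 of the 8 windows and in 1.83% of all windows. The bases before the start of Slc7a1, the gene with the largest fold change of the 10, are given in full, with the match in capitals (chr12:11664238-11664487, plus strand, GRCr8).
Slc7a1 upstream: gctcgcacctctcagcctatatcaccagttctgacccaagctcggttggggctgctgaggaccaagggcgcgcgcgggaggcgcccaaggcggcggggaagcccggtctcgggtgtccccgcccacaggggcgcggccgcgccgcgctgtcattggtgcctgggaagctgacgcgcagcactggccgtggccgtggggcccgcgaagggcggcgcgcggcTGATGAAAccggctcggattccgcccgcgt

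Levels are given as TPM, which correct for transcript length and for the library total. Fold changes come from the counts, after scaling for library composition (TMM), and are written as log2 values of spironolactone over non-loaded with their standard error (SE). Among the cationic amino acid transporters, Slc7a1, the widely expressed CAT1, measured 29.3, 34.0 and 35.8 TPM in the spironolactone libraries, against 7.60, 7.57 and 11.4 TPM in the non-loaded libraries. The lowest spironolactone library was well above the highest non-loaded one, and non-loaded replicate 3 stood above the other two of its group. The log2 fold change was 1.89 ± 0.12 (SE), and without non-loaded replicate 3 it was 2.11. Slc7a3, the CAT3 of neural tissue, measured 16.9, 17.1 and 13.9 TPM with spironolactone, against 20.6, 23.1 and 18.4 TPM with non-loaded microspheres. It was thus the 1 gene of the 10 with all spironolactone libraries below all non-loaded ones, and its log2 fold change was -0.40 ± 0.12. It was not among the called genes with all 6 libraries and the filter on low counts. It was among them without that filter (-0.40) and without non-loaded replicate 3 (-0.50).

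The third cationic transporter gene, Slc7a2 (CAT2), which is not one of the 10, averaged 12.4 ± 2.44 TPM with spironolactone and 14.0 ± 1.85 TPM with non-loaded microspheres (SD, n = 3 each), a log2 fold change of -0.20 ± 0.15 (edgeR, adjusted p = 0.556). The order of the 3 genes therefore differed between the groups. With spironolactone, Slc7a1 made up 49.2%, 56.1% and 56.1% of the summed TPM of Slc7a1, Slc7a2 and Slc7a3. In the non-loaded libraries it made up 17.2%, 17.0% and 27.2%. The share of Slc7a3 was 28.4%, 28.1% and 21.7% with spironolactone, against 46.7%, 52.0% and 43.6%, the largest of the 3, in each non-loaded library. The sum itself was 61.4 ± 2.22 TPM with spironolactone and 43.6 ± 1.30 TPM with non-loaded microspheres, without overlap.

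Slc3a2 and its most abundant light chain gene, Slc7a5, were both higher. Slc3a2 measured 288, 301 and 302 TPM with spironolactone, against 184, 175 and 222 TPM with non-loaded microspheres, a log2 fold change of 0.60 ± 0.07. Slc7a5, the light chain for leucine and other large neutral amino acids, measured 229.4, 238.5 and 249.5 TPM with spironolactone, against 133.2, 123.3 and 163.1 TPM with non-loaded microspheres, a log2 fold change of 0.76 ± 0.08. In both genes the spironolactone libraries lay close together and non-loaded replicate 3 was the highest of its group. The ratio of Slc7a5 to Slc3a2 TPM varied little among libraries, at 0.796, 0.792 and 0.826 with spironolactone and 0.724, 0.706 and 0.734 with non-loaded microspheres, although the 2 ranges did not overlap. Slc7a6, the light chain y+LAT2, measured 27.9, 27.9 and 26.2 TPM with spironolactone, against 28.9, 26.9 and 27.1 TPM with non-loaded microspheres. The 2 groups overlapped, and its log2 fold change was -0.03 ± 0.07.

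Of the other light chains that pair with Slc3a2, none was called. Slc7a8 (LAT2) averaged 46.5 ± 3.29 TPM with spironolactone and 43.2 ± 7.52 TPM with non-loaded microspheres (log2 fold change 0.08 ± 0.09, edgeR adjusted p = 0.699). Slc7a11 (xCT), which brings in cystine for glutathione and is a known ATF4 target, averaged 9.42 ± 0.664 TPM with spironolactone and 9.72 ± 1.68 TPM with non-loaded microspheres (-0.06 ± 0.10, edgeR adjusted p = 0.827). Slc7a7 (y+LAT1) averaged 6.71 ± 1.43 TPM with spironolactone and 5.19 ± 0.739 TPM with non-loaded microspheres (0.35 ± 0.21, edgeR adjusted p = 0.455), with at most 76 counts in a library. Slc7a10 (asc-1) had at most 8 counts and was below the filter, so a change in it was not detectable at this depth. Slc7a5 made up 71.1%, 73.4% and 73.2% of the summed TPM of the 6 light chain genes with spironolactone, against 61.1%, 60.8% and 63.3% with non-loaded microspheres. The summed light chains came to 1.12, 1.08 and 1.13 times Slc3a2 with spironolactone and to 1.19, 1.16 and 1.16 times with non-loaded microspheres.

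Among the SLC38 transporters only Slc38a2 was called. Slc38a2 (SNAT2), the amino acid-regulated carrier of system A, measured 122.4, 122.8 and 119.8 TPM with spironolactone, against 64.4, 58.1 and 80.1 TPM with non-loaded microspheres, a log2 fold change of 0.83 ± 0.08. The 3 spironolactone libraries were almost level, with a coefficient of variation (CV) of normalised counts of 2.37%, while the non-loaded ones had a CV of 14.3%. Slc38a1 (SNAT1), the neuronal system A carrier, measured 186, 179 and 183 TPM with spironolactone, against 186, 183 and 178 TPM with non-loaded microspheres, a log2 fold change of -0.01 ± 0.06. Slc38a3 (SNAT3) measured 336, 317 and 277 TPM with spironolactone, against 319, 303 and 331 TPM with non-loaded microspheres, a log2 fold change of -0.05 ± 0.06. In both genes the groups overlapped, and the range of Slc38a3 with spironolactone enclosed all 3 of its non-loaded values. Slc38a2 made up 19.0%, 19.9% and 20.7% of the summed TPM of the 3 genes with spironolactone, against 11.3%, 10.7% and 13.6% with non-loaded microspheres. The sum of the 3 overlapped between groups, at 614.5 ± 32.4 TPM with spironolactone and 567.1 ± 22.6 TPM with non-loaded microspheres.

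Of the pair of SLC1 exchangers, Slc1a4 (ASCT1), which carries serine, alanine, cysteine and threonine, measured 47.9, 51.2 and 53.8 TPM with spironolactone, against 16.7, 25.0 and 36.8 TPM with non-loaded microspheres. The groups did not overlap, and the CV of normalised counts was 7.41% with spironolactone and 36.8% with non-loaded microspheres. The log2 fold change was 0.94 ± 0.16, and when a library was left out it lay between 0.71 (non-loaded replicate 1 left out) and 1.24 (non-loaded replicate 3). Slc1a4 was no longer called with robust shrinkage of the variances or on log2(TPM + 1), and its direction turned with the title number as a covariate (-0.31). Slc1a5 (ASCT2), the glutamine exchanger of dividing cells, had the lowest mean level of the 10 genes, at 8.91, 7.35 and 7.0 TPM with spironolactone, against 8.39, 5.62 and 8.77 TPM with non-loaded microspheres. Its groups overlapped, its log2 fold change was 0.01 ± 0.17, and it had 93 to 146 counts in a library, so that its value is the least precise of the 10. Slc1a4 made up 84.3%, 87.4% and 88.5% of the summed TPM of the pair with spironolactone, against 66.6%, 81.6% and 80.7% with non-loaded microspheres.

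**Figure D2:**
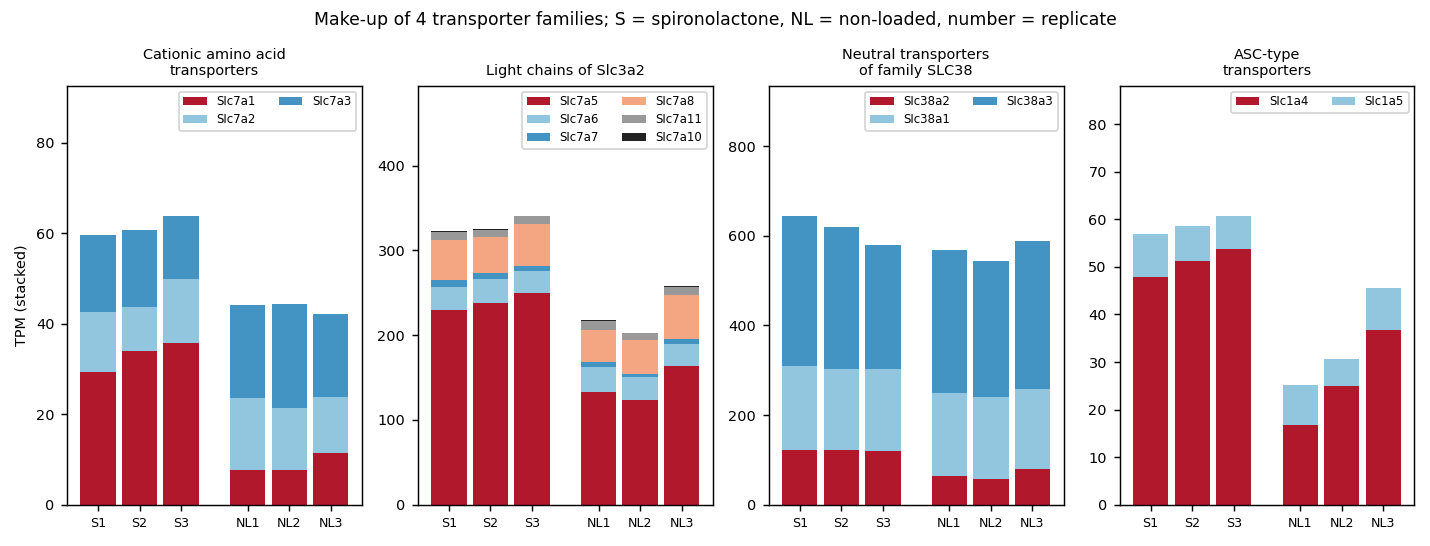
Summed TPM (vertical axes, from 0) of the genes of 4 transporter families in each library, stacked by gene, with spironolactone (S1 to S3) left of non-loaded (NL1 to NL3). The segment at the foot of each bar is Slc7a1, Slc7a5, Slc38a2 or Slc1a4. The foot segments are taller in the spironolactone libraries, while the summed SLC38 level overlaps between the groups.

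The levels of the 10 genes ran over a wide range in both groups. With spironolactone the order was Slc38a3, Slc3a2, Slc7a5, Slc38a1, Slc38a2, Slc1a4, Slc7a1, Slc7a6, Slc7a3 and Slc1a5, with mean levels of 309.9 TPM at the top and 7.75 TPM at the bottom, and only the ranges of Slc38a3 and Slc3a2 overlapped among neighbours. With non-loaded microspheres the order was Slc38a3, Slc3a2, Slc38a1, Slc7a5, Slc38a2, Slc7a6, Slc1a4, Slc7a3, Slc7a1 and Slc1a5, at 317.4 TPM at the top and 7.59 TPM at the bottom. In that group the neighbours Slc3a2 and Slc38a1, Slc7a6 and Slc1a4, Slc1a4 and Slc7a3, and Slc7a1 and Slc1a5 were not separated by their ranges. The summed level of the 10 genes was 1293, 1296 and 1268 TPM with spironolactone, against 968, 930 and 1077 TPM with non-loaded microspheres. The 5 called genes made up 55.5%, 57.7% and 60.0% of it with spironolactone, against 41.9%, 41.8% and 47.7% with non-loaded microspheres. The other 5 summed to 543.9 ± 34.4 TPM with spironolactone and 555.5 ± 12.2 TPM with non-loaded microspheres (SD, n = 3 each), with overlap. The called genes were set apart by this same comparison. Their larger share and the overlap of the rest follow from that split, and nothing is read from them.

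Within each group the libraries also stood in a similar order in the 5 called genes. Spironolactone replicate 1 was the lowest of its group in 5 of these 5, where it was the lowest for 35.5% of all tested genes, and non-loaded replicate 3 was the highest of its group in 5 of 5, where it was the highest for 33.9% of all tested genes. In the other 5 genes, spironolactone replicate 1 was the lowest in 1 and non-loaded replicate 3 the highest in 2. In the 5 called genes the CV among spironolactone libraries was 2.37% (Slc38a2) to 11.9% (Slc7a1), on either side of the median of 7.92% over all tested genes. Among non-loaded libraries it was 10.6% (Slc3a2) to 36.8% (Slc1a4), each above the median of 7.53%. Slc38a1 was the steadiest of the 10 with spironolactone, with a CV of 0.859%, and Slc38a3 with non-loaded microspheres, with a CV of 1.87%. Spironolactone replicate 1 and non-loaded replicate 3 carry the title numbers 8 and 4, which are neighbours in the order of the numbers.

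**Figure D3:**
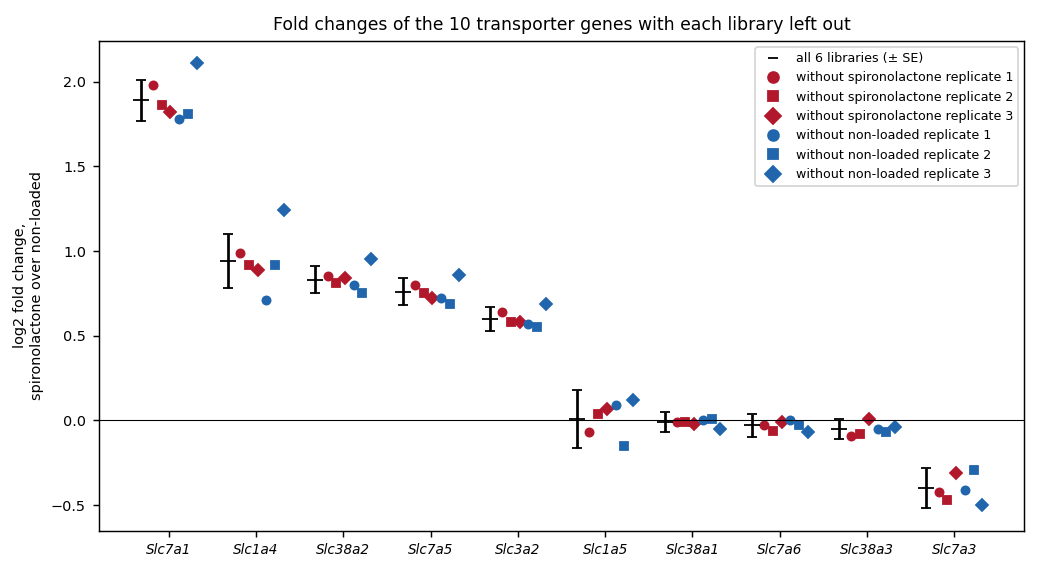
Log2 fold change of spironolactone over non-loaded (vertical axis) for each of the 10 genes with all 6 libraries (black bar, ± SE) and with each library left out (red, a spironolactone library, blue, a non-loaded library). Slc7a1, Slc1a4, Slc38a2, Slc7a5 and Slc3a2 stay between 0.55 and 2.11 and are furthest from 0 without non-loaded replicate 3.

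The 5 called genes remained called with any library left out, with log2 fold changes of 1.78 to 2.11 for Slc7a1, 0.75 to 0.95 for Slc38a2, 0.69 to 0.86 for Slc7a5 and 0.55 to 0.69 for Slc3a2. In each of the 5 genes the value without non-loaded replicate 3 was the highest. With the title number as a covariate none of the 5 was called by edgeR. The log2 fold changes were then 0.84 for Slc7a1, 0.52 for Slc38a2, 0.24 for Slc7a5, 0.17 for Slc3a2 and -0.31 for Slc1a4, and the number, which follows the group, cannot be told apart from the treatment.

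The other amino acid transporters were taken from the SLC1, SLC3, SLC6, SLC7, SLC16, SLC36, SLC38 and SLC43 families. Of 44 such genes 29 were tested, and 0 were called higher or lower by edgeR at an adjusted p of 0.05, while 3 had an unadjusted p below 0.05. Over all tested genes 1.87% were called higher, 0.763% were called lower and 15.8% had an unadjusted p below 0.05, so that a list of this length with 0 calls is near the background. Their log2 fold changes lay between -0.41 and 0.36, with a median of -0.07, beside a median of 0.00 over all tested genes. The 10 described here had a median of 0.30, but they were chosen with this comparison in view and left out of this list. Nothing is therefore read from the gap between these medians. Among the most abundant of the other transporters were Slc6a6, Slc6a9, Slc1a3 and Slc6a11, which carry taurine, glycine, glutamate and GABA in that order. The taurine transporter gene Slc6a6 averaged 534.0 ± 24.3 TPM with spironolactone and 486.8 ± 43.3 TPM with non-loaded microspheres (log2 fold change 0.12 ± 0.07, edgeR adjusted p = 0.440). Slc6a9, the glycine transporter GlyT1, averaged 335.6 ± 8.58 TPM with spironolactone and 293.9 ± 6.58 TPM with non-loaded microspheres. Its groups did not overlap, and its log2 fold change of 0.19 ± 0.05 was not called by edgeR (adjusted p = 0.0664), but it was called by DESeq2 (adjusted p = 0.00916) and limma-voom (adjusted p = 0.0364), where it was the only such gene.

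Slc1a3, the glutamate transporter GLAST of Müller glia, averaged 201.4 ± 2.58 TPM with spironolactone and 207.5 ± 12.2 TPM with non-loaded microspheres (-0.06 ± 0.06, edgeR adjusted p = 0.657). The GABA transporter gene Slc6a11 (-0.17 ± 0.06, edgeR adjusted p = 0.169) was not called either. The other 15 genes of the list were below the filter.

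**Figure D4:**
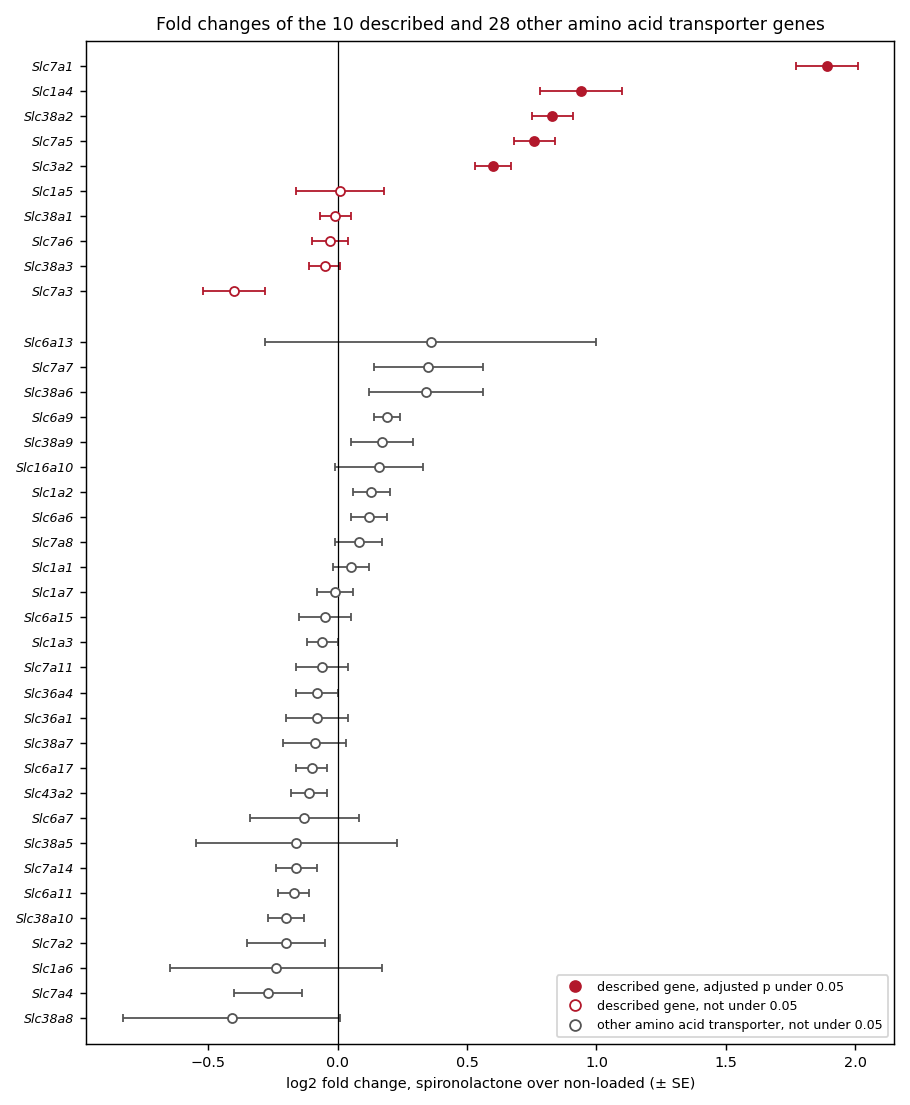
Log2 fold change of spironolactone over non-loaded with its SE (horizontal axis) for the 10 genes described (red, above) and 28 of the 29 other amino acid transporter genes tested (grey, below), sorted within each set. Filled points passed an adjusted p of 0.05 in edgeR over all tested genes. They are Slc7a1, Slc1a4, Slc38a2, Slc7a5 and Slc3a2, and the grey points lie between -0.41 and 0.36. The red genes were chosen with this comparison in view.

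Genes for ATF4 and the factors that act with it or downstream of it were mostly higher in the same libraries. Of 7 tested, 6 were called higher, where 1.87% of all tested genes were, and 0 lower, where 0.763% were. This list too was drawn up with earlier results of the comparison known, so its count is a description and not independent support. Atf3, a stress-induced repressor and activator, averaged 141.4 ± 10.3 TPM with spironolactone and 60.2 ± 25.3 TPM with non-loaded microspheres (log2 fold change 1.21 ± 0.16, edgeR adjusted p = 0.000384, and 0.176 with robust shrinkage). Cebpb rose by 1.15 ± 0.14 (edgeR adjusted p = 0.000186), Atf5 by 0.79 ± 0.10 (0.00015) and Cebpg, a partner of ATF4, by 0.49 ± 0.07 (0.000511). Ddit3, which encodes CHOP, rose by 0.40 ± 0.08 (edgeR adjusted p = 0.0109) but was not called on log2(TPM + 1) (0.087) or with either spironolactone replicate 2 (0.112), non-loaded replicate 1 (0.0781) or replicate 2 of that group (0.062) left out. Trib3, a pseudokinase that binds ATF4, rose by 0.53 ± 0.13 (edgeR adjusted p = 0.0455) but was not called by DESeq2 (0.195), or when spironolactone replicates 2 (0.219) or 3 (0.104) or non-loaded replicates 1 (0.217) or 2 (0.175) were left out. Across 10 other scalings, filters, tests and units, DESeq2 among them, Trib3 was called in only 4. Atf4 itself averaged 1313 ± 28.9 TPM with spironolactone and 1169 ± 34.3 TPM with non-loaded microspheres, without overlap, and was not called (0.15 ± 0.06, edgeR adjusted p = 0.187). Nupr1 was listed at 0 in all 6 libraries.

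The retinal identity of the libraries was checked on markers of 6 cell types, and 38 marker genes were found in the tables, all with counts. Rod markers summed to 40980 to 45710 TPM with spironolactone and to 50640 to 62030 TPM with non-loaded microspheres, without overlap. Of 7 rod markers 2 fell, among them, named after its value was seen, the transducin gene Gnat1 (-0.78 ± 0.11, edgeR adjusted p = 0.000705, and 0.162 with robust shrinkage). Over all tested genes 0.763% were called lower. Whether the rods had a part in the transporter differences was not tested. For Müller glia (7 markers, among them Glul and Rlbp1, 0 called) the sums were 4410 to 4522 TPM with spironolactone and 4251 to 4518 TPM with non-loaded microspheres. Glul alone averaged 2878 TPM with spironolactone and 2771 TPM with non-loaded microspheres, so the sum says little of the other markers. The log2 fold changes of the 7 lay between -0.22 and 0.04, with 6 of them negative. For endothelium (7 markers, Cldn5 among them) they were 309.9 to 332.9 TPM with spironolactone and 306.6 to 349.3 TPM with non-loaded microspheres, and most of the sum was Kdr, named after its value was seen, at 240.9 TPM with spironolactone and 243.6 TPM with non-loaded microspheres. The log2 fold changes of the 7 lay between -0.27 (Cldn5) and 0.55, and 1 marker, Vwf, named after its value was seen, rose (0.55 ± 0.14, edgeR adjusted p = 0.0404). Over all tested genes 1.87% were called higher. Cldn5 was not called with all 6 libraries but was called lower without spironolactone replicate 1 (-0.44, edgeR adjusted p = 0.043). Without spironolactone replicate 3, its lowest library, it was at -0.10 and not called (edgeR adjusted p = 0.783). Vwf was not called on log2(TPM + 1) (0.265) or with any library but spironolactone replicate 2 left out (0.0679 to 0.163). Markers of pigment epithelium had 0 calls of 6, but all 6 had negative log2 fold changes, with a median of -0.48. In edgeR 2 of the 6 had an unadjusted p below 0.05, where 15.8% of all tested genes had. Their sums overlapped, at 90.8 to 246.0 TPM with spironolactone and 213.2 to 263.4 TPM with non-loaded microspheres. The 90.8 TPM was the sum in spironolactone replicate 3. Among them Rpe65 had a log2 fold change of -0.60 ± 0.24 (edgeR adjusted p = 0.232). It was called without a filter on low counts (adjusted p = 0.0332) and without spironolactone replicate 1 (-0.93, adjusted p = 0.0255). Without spironolactone replicate 3, its lowest library at 5.12 TPM, the value was -0.31 and not called (edgeR adjusted p = 0.582). Whether pigment epithelium had a part in the transporter differences was not tested. Markers of ganglion cells (6, with Rbpms) and microglia (5, with Cx3cr1) had 0 calls each and overlapping sums, with median log2 fold changes of -0.07 for ganglion cells and -0.18 for microglia.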

How the data were processed

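The authors deposited 1 gene table per sample. Per the file headers, each holds expected counts, which are estimated counts and not normalised, TPM computed by the authors, and gene and effective lengths in bases. The submitters' processing notes list RSEM 1.2.28, STAR 2.5.3a, Trimmomatic, FastQC and the rn6 genome, without roles. Neither the annotation nor whether strand was used in counting is given in the sources used here, so reads of overlapping antisense genes may not be told apart. Per the labels' protocols, retinas were frozen and libraries made with a stranded mRNA kit.

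Expected counts were rounded, and filterByExpr kept 13242 genes, which hold 99.91% or more of the counts in any library. Groups, taken from the labels' treatment field, were compared with edgeR 4.0.16 (TMM, glmQLFTest, two-sided, Benjamini-Hochberg over all tested genes, threshold 0.05) in R 4.3.3. The SE is the log2 fold change over the square root of F. Alternatives used limma 3.58.1 and DESeq2 1.42.0. The 10 genes and the gene lists were chosen with earlier results of these data known. Named were the 10 genes, all light chain and ATF4 genes listed, the 5 other transporters with the highest mean TPM, called genes of these lists, and 8 defining markers. Some of these genes are not reported here, though counts and sums include them. Of the listed names Slc6a20, Pecam1 and Itgam were not matched and not analysed here. Promoters came from RefSeq (GRCr8), another build than the authors', matched by symbol.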

Additional observations from a re-analysis of the deposited data

How the results depend on the processing

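No paired analysis was possible because the labels give no replicate numbers shared between the groups. Of the 10 transporter genes, the 5 called higher remained 5 or 4 (without Slc1a4) under the other scalings, filters, tests and units and with any library left out. With the title number as a covariate 0 of them, 0 light chains and 0 ATF4 and CHOP factors were called, as 0 of all tested genes were higher and 0 lower (562 with an unadjusted p below 0.05; edgeR was the only tool run with it), and there the fold changes of Slc1a4 (-0.31) and Trib3 (-0.01) turned negative. That number follows the group, so this fit cannot separate them. Under the other settings 0 or 1 of the 10 were called lower: 1, Slc7a3, without a filter on low counts and without non-loaded replicate 3. Among the other transporters 1 was called higher, Slc6a9, without a filter, with robust shrinkage, with DESeq2 and with limma-voom.

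Over all tested genes the calls, 247 higher and 101 lower, became 439 and 163 without a filter, 82 and 18 on log2(TPM + 1) and 79 and 16 on log2(TPM + 0.1) with limma. Leaving out spironolactone replicates 1, 2 or 3 gave 421 and 200, 81 and 30, or 105 and 41 calls, and leaving out non-loaded replicates 1 or 2 gave 87 and 37, or 113 and 44. The cause was not tested. A change of sign was counted only for called genes. Genes with few counts, such as Slc1a5, Slc7a7 and Slc7a10, are limited by depth.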
